A study of Mus musculus with 18 samples.

Results

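DEAD and DEAH box proteins are enzymes that use ATP to bind, unwind or remodel RNA and RNA-protein complexes. Different members serve different steps in the life of an RNA: many work in the nucleolus on ribosomal RNA, others drive the rearrangements of the spliceosome, carry mRNA through the nuclear pore, or control translation, decay and the sensing of viral RNA. Nearly all cells need most of them, and embryonic stem cells, which grow fast, make large amounts of ribosomal RNA.

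The genes described here are the 49 whose symbol begins with Ddx (33 genes) or Dhx (16 genes) and a digit, out of 18659 genes measured. The prefix matched 54 symbols, of which 2 were left out by name and 3 because they lie on the X or Y chromosome. The 49 genes lie on 14 chromosomes. They were sorted by textbook role into 16 genes of ribosome biogenesis, 11 of splicing, 7 of mRNA export, translation and decay, 5 of transcription, microRNA processing and RNP assembly, 2 of the mitochondrial ribosome, 2 of antiviral sensing and 1 DNA helicase, and 5 had no role assigned.

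RNA-seq was done on male E14 mouse ESCs, an established line, grown in serum with LIF on gelatin, after siRNA knockdown (KD) of *Stag1*, which encodes a subunit of the cohesin ring. The 16 libraries fall into 3 replicate sets. In set 1, scrambled siRNA (scr) has 1 library and SP, a pool of commercial siRNAs against *Stag1*, has 3 (1a, 1b and 1c). Sets 2 and 3 each held 1 library of scr, of SP, of 3p, of 5p and of SATS. By the study, 3p is a smaller pool of commercial siRNAs against the 3′ end of *Stag1* mRNA. The 5p siRNA is a custom duplex against its 5′ end. SATS is an enzymatically made siRNA mixture against the 5′ UTR of an upstream *Stag1* start site. The catalogue numbers given for 3p recur, apart from their prefix, among those of SP, so SP and 3p may share siRNAs. Set 2 also held 1 library of untreated cells and set 3 held 1 of luciferase siRNA (Luc). All siRNAs were left on the cells for 24 h. The study calls its replicate libraries independent, but neither it nor the labels say that the sets were separate cultures, so p-values measure the spread between these samples, which may be in part technical.

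Set 1 was read to a depth of 9023224 to 14040830 reads (4 libraries), and sets 2 and 3 to 32137666 to 45660840 (12 libraries). Once the ribosomal RNA gene *Rn45s* is taken out, 1883691 to 4321867 reads remain per library of set 1 and 25978759 to 36332493 per library of sets 2 and 3, so counting error is larger in set 1. All 10 ESC markers listed had a normalized value of at least 50 in every library of sets 2 and 3. Relative to scr of its own set, *Stag1* was at 17.3% to 23.5% with SP, 3p and 5p in sets 2 and 3, at 50.5% and 49.7% with SATS, and at 25.4% to 32.8% in SP of set 1.

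The levels of the helicase genes are given as the normalized value (reads divided by 1 size factor per library) per kb of exon of the protein-coding gene, as the mean over the 12 libraries of sets 2 and 3. *Ddx5*, a coregulator of transcription that also serves microRNA processing, had the highest level, 2574 ± 246 per kb (SD, n = 12). It was followed by the nucleolar helicase *Ddx21* at 1887 per kb, by *Dhx9* (RNA helicase A) at 1767 per kb and by *Dhx15*, which releases the spliced intron from the spliceosome, at 1574 per kb. *Ddx39b*, which acts in early spliceosome assembly and in mRNA export, stood at 1357 per kb, *Ddx18* of ribosome biogenesis at 1145 per kb, and *Ddx6*, a P-body helicase that represses and decays mRNA, at 927 per kb. The leading member of the mitochondrial group was *Dhx30* at 400.5 per kb, and *Ddx11*, a DNA helicase that acts in sister chromatid cohesion, stood at 169.5 per kb. *Dhx40* at 235.5 per kb led the genes with no role assigned.

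At the low end were *Ddx43*, known from testis and tumours, at 30.8 per kb, and *Ddx25*, a testis helicase, at 18.4 per kb. Both antiviral genes were lower still, with 6.85 per kb for *Dhx58*, a regulator of the RIG-I-like receptors, and 1.51 per kb for the interferon-induced *Ddx60*. These 2 were the only members with a mean normalized value under 50. In the order of the levels, 39 of 48 neighbouring pairs had ranges that overlapped over the 12 libraries, so most neighbours could not be ranked. *Ddx5*, *Ddx39b* and *Ddx18* were among those whose range did not reach the next gene.

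**Figure D1:**
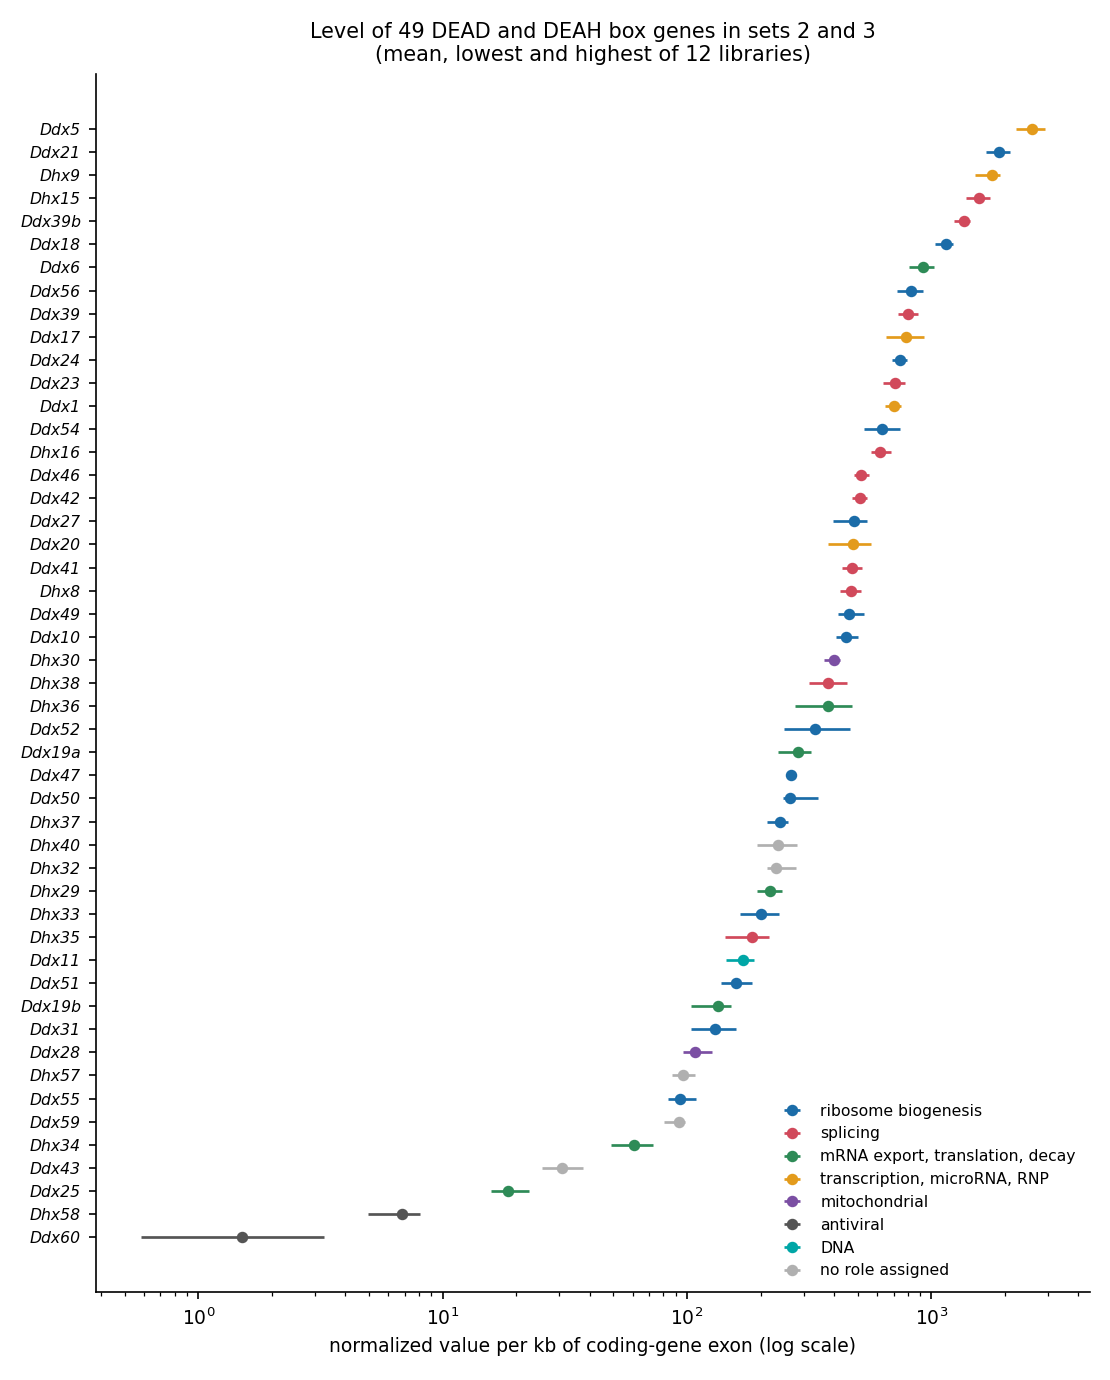
Normalized value per kb of exon (log axis) of the 49 genes in the 12 libraries of sets 2 and 3, with the point at the mean, the bar from the lowest to the highest library and the colour giving the role. The levels run from 2574 per kb for *Ddx5* to 1.51 per kb for *Ddx60*, and most neighbouring bars overlap.

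The levels varied little between libraries. Over the 12 libraries of sets 2 and 3, the median coefficient of variation was 7.66% for the 47 members with a mean value of at least 50, beside 12.6% for the 11026 genes of the table at that level. Here and below, such genes share only this floor of 50 and were not matched to the members in level. The highest library was 1.28 times the lowest at the median member and 1.5 times at the median gene. *Ddx47*, a helicase of pre-ribosomal RNA processing, was the steadiest member, with a coefficient of variation of 2.57% and values from 1085 to 1169. *Dhx36*, which unwinds G-quadruplexes, varied most of these 47, by 17.2%, from 1560 in the untreated library to 2672 in 5p of set 3.

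The main question of the design is what changes when *Stag1* is reduced, and whether siRNAs against different parts of the gene differ. For these helicases the differences were small. Set against scr of their own set, 364 of 376 values (47 members in the 8 KD libraries of sets 2 and 3) lay no more than 20% below or 25% above it, which is 96.8% of them, beside 87.7% for all genes at that level. The lowest value was *Ddx19b* at 68.2% in 5p of set 3 and the highest was *Ddx25* at 140.2% in the same library. The 12 values outside came from 8 genes: *Ddx19b* (3 libraries), *Ddx21*, *Ddx25* (2 each), *Ddx49*, *Ddx50*, *Ddx52*, *Dhx34* and *Dhx35* (1 each).

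No member passed an adjusted p of 0.05 in any of the 7 KD comparisons when the samples were fitted by group alone (limma on log2(value + 1), Benjamini-Hochberg over all genes tested). The share of all genes called in those fits was 0% for SP over 3 sets, 0.00606% for SP in sets 2 and 3, 0.00606% for 3p, 0.0121% for 5p, 0% for SATS, 0% for 5p against 3p and 0.00599% for all KDs against all controls. At an unadjusted p under 0.05, these fits picked 0, 0, 0, 2, 1, 1 and 2 members, in that order, where 0.526%, 2.49%, 1.73%, 3.63%, 3.94%, 4.09% and 5.61% of all genes passed it. edgeR on the reads called no member at the adjusted threshold either, at the same shares of all genes. Libraries of the same set deviated together, and a fit with the set as a block was narrower. With it, the median 95% interval of a member reached 0.174 on the log2 scale (1.13-fold) to either side for 1 siRNA, against 0.272 (1.21-fold) without it. For a typical member a change smaller than this could not be told from 0. The intervals are not adjusted for the number of genes tested, so a call needed a larger difference. With SATS, for example, the lowest difference of a member was −0.32, and it was not called with the block.

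With the block, 1 member was called, *Ddx19b*, for 5p against scr, 5p against 3p and all KDs against all controls. No member was called with the block for SP over 3 sets (0% of all genes, so not *Stag1* either), SP in sets 2 and 3 (0.746%), 3p (0.285%) or SATS (2.64%). *Ddx19b* encodes a helicase of the nuclear pore that strips proteins from mRNA as it leaves the nucleus, a step for which Gle1 is the activator. Its normalized value was 984, 988 and 1023 in scr of sets 1, 2 and 3, 961 in untreated cells and 986 with Luc. With 5p it was 783 in set 2 and 698 in set 3, below every other library of those sets. With SP it was 938 and 787 in sets 2 and 3, with 3p 944 and 956, and with SATS 907 and 842. All 8 KD libraries of sets 2 and 3 (698 to 956) lay below all 4 controls of those sets (961 to 1023), by a small margin, and no other member was split in this way. Over all genes, 0.45% had all KDs below all controls and 0.27% had all KDs above.

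In set 1 this order was not seen. The 3 SP libraries of set 1 held *Ddx19b* at 1156, 965 and 725, on either side of their scr library. They rest on 246, 300 and 90 reads, and scr on 147, where the libraries of sets 2 and 3 held 1508 to 2579 reads each. SP over 3 sets had a log2 difference of −0.17 ± 0.13 (SE, n = 3 and 3), with a limma adjusted p of 0.9999 and 0.759 with the block. These limma fits did not call *Stag1* itself, at a log2 difference of −2.15 (adjusted p = 0.225 by group alone and 0.0534 with the block). A helicase without a call in them is therefore not shown to be unchanged.

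The log2 difference of *Ddx19b* between 5p and scr was −0.44 ± 0.12 (SE, n = 2 and 2), a fall of 26.5%. The adjusted p was 0.931 by group alone and 0.0171 with the set block (SE 0.087). With the block 2.37% of all genes were called in this comparison, 1.71% as lower, so the 1 call among 49 members is a share near the background. With the block, edgeR put the adjusted p at 0.0158 (2.41% of all genes called). The log2 difference of 5p against 3p was −0.36, with an adjusted p of 0.966 by group alone and 0.0370 with the block, where 3.26% of all genes were called (3.21% in edgeR). All KDs against all controls gave −0.22 ± 0.063 (SE, n = 8 and 4), with an adjusted p of 0.773 by group alone and 0.0258 with the block, where 4.47% of all genes were called (4.66% in edgeR). These 3 comparisons share libraries and are not independent of each other. The interval with the block ran from −0.63 to −0.26 for 5p and from −0.27 to 0.11 for 3p.

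The call rests on few libraries. With the block, the adjusted p for 5p against scr was 0.0766 without scr of set 2, 0.281 without scr of set 3 and 0.198 without 5p of set 3, and 0.0363 without 5p of set 2 (limma). For 5p against 3p the call was lost whichever of the 4 libraries was left out (0.0522 to 0.381). For all KDs it was lost without scr of set 2 (0.0545), scr of set 3 (0.126), SP of set 3 (0.0617) or Luc of set 3 (0.0975).

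*Ddx19b* has a close copy next to it. *Ddx19a* lies at chr8:110974996-110997800 and *Ddx19b* on the minus strand at chr8:111003188-111031751 (GRCm38, the build of the files), 5388 bases apart. Of the 75-base stretches (the read length) in the exons of *Ddx19b*, 10.2% also occur in *Ddx19a*, and they make up 27.5% of those of *Ddx19a*, so that the reads of the pair are in part uncertain. *Ddx19a* held 723 and 602 in 5p, against 791 and 745 in scr, 705 untreated and 665 with Luc, so that 5p overlapped the controls. Its log2 difference between 5p and scr was −0.22, with a limma adjusted p of 0.9998 by group alone and 0.209 with the block. Per kb, *Ddx19a* was 2.17 times *Ddx19b* at the median of the libraries of sets 2 and 3 (1.79 to 2.44) and 1.28 to 1.82 times in set 1. The other close pairs, *Ddx39* with *Ddx39b*, *Ddx5* with *Ddx17* and *Ddx21* with *Ddx50*, shared no stretch of 75 bases.

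**Figure D2:**
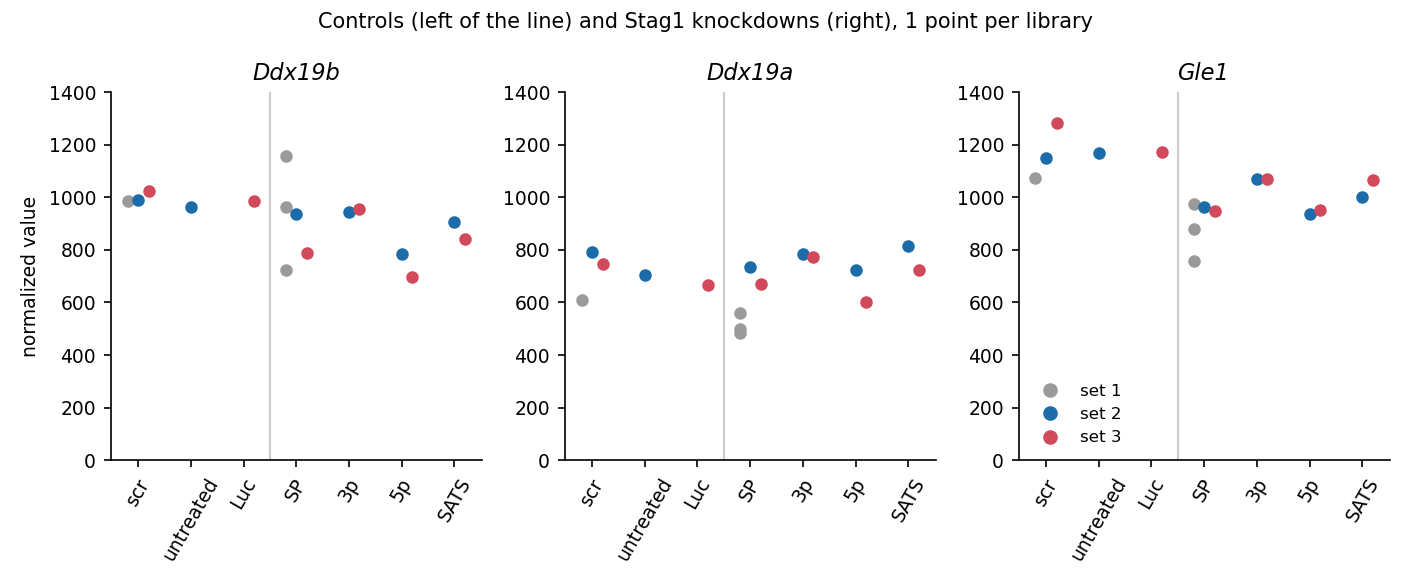
Normalized value (axis from 0) of *Ddx19b*, its neighbour *Ddx19a* and the cofactor gene *Gle1* in each of the 16 libraries, 1 point per library, with controls left of the line, KDs right of it and the colour giving the set. The 5p points of *Ddx19b* are at 783 and 698, and those of *Gle1* in sets 2 and 3 lie below all controls of those sets in every KD.

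The sequence of the 5p duplex is given by the study. GTGGAAG is the heptamer that pairs with bases 2 to 8 of its guide strand, and it was searched on the transcript strand of the annotated 3′ UTRs. It occurs in 5 of the 49 members and in 13.1% of the 16041 genes of the table with a 3′ UTR. The 5 stretches are shown because the called member is among them, with the heptamer in capitals and its flanks in lower case.

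Ddx19b: aggccagcctcGTGGAAGtgacagcacaga

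Ddx43: ttgtagtcaaaGTGGAAGtgttgaaacata

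Ddx47: atcactagccaGTGGAAGgtgccacattag

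Ddx49: gacggggtgggGTGGAAGctctggttgcca

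Ddx54: ctgaatgtcccGTGGAAGgctcacaatggc

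In *Ddx19b* the heptamer is at chr8:111007889-111007895 on the minus strand, at base 355 of the 5062 bases of 3′ UTR. In 5p against scr all 5 members that hold it had a log2 difference below 0, from −0.04 for *Ddx47* and −0.12 for *Ddx49* to −0.15 for *Ddx43*, −0.18 for *Ddx54* and −0.44 for *Ddx19b*. The median was −0.15 for these 5 and −0.04 for the 42 other members with a mean value of at least 50, of which 30 were below 0. The 5 genes were also the lower group with the other siRNAs, at −0.04 against −0.03 for 3p, −0.06 against −0.04 for SP in sets 2 and 3 and −0.10 against −0.07 for SATS, with 4 of 5 below 0 each time. Over all genes at that level the medians in 5p against scr were −0.06 for 1500 genes with the heptamer and 0.01 for 8963 without it. For the same genes they were −0.003 and −0.005 with 3p, 0.003 and −0.003 with SP in sets 2 and 3, and −0.015 and 0.006 with SATS. The differences of *Ddx47*, *Ddx49* and *Ddx43* were smaller than their SE by group alone (0.088, 0.14 and 0.25), and of the 5 genes only *Ddx19b* was called with the block. A match describes the sequence, and binding of the guide at any of these places was not tested.

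No ribosome biogenesis gene was called in a KD comparison, by group alone or with the block, and most of their differences were below 0. In all KDs against all controls, 13 of the 16 had a log2 difference below 0, with a median of −0.10, beside a median of 0.00 and 50.1% below 0 over all genes. With the block, 7 of the 16 had an unadjusted p under 0.05 and all 7 were lower: *Ddx21*, *Ddx27*, *Ddx31*, *Ddx51*, *Ddx56*, *Dhx33* and *Dhx37*. Over all 49 members 11 were lower and 1 (*Dhx36*) was higher at that unadjusted threshold, or 12 in all, where 10% of all genes were lower, 11% higher and 21% either. The largest of the 7 differences was −0.16 for *Ddx31* (block adjusted p = 0.0864, limma). The list medians for SP, 3p, 5p and SATS against scr were −0.08, −0.08, −0.07 and −0.12, with 13, 13, 15 and 12 of 16 below 0. These 4 share the same scr libraries. Differences below 0 were also frequent among 19 RNA helicase genes under other names, with 15 of 19 (median −0.07) for all KDs and 18, 17, 14 and 15 of 19 for SP in sets 2 and 3, 3p, 5p and SATS. The median of all 49 members in 5p against scr was −0.13 without scr of set 2 and 0.005 without scr of set 3, both by group alone. Such a fit sets 5p of both sets against scr of 1 set, so the difference between the sets enters these values.

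*Dhx33*, which acts in ribosomal RNA synthesis, held 1053 and 1233 in scr of sets 2 and 3. It held 920.5 and 1046 with SP and 858 and 1032 with 3p, below scr of the same set each time. With 5p it was at 1039 and 1131 and with SATS at 963 and 1070, also below scr of the same set. Untreated cells held 1043 and Luc 1101, and scr of set 3 was the highest library of sets 2 and 3 for this gene. The log2 difference of 3p was −0.28, with a limma adjusted p of 1.000 by group alone and 0.162 with the block. *Ddx31* held 406 and 520 in scr, 341 and 435 with SP, and 351 and 437 with SATS. The untreated library held 412, close to scr of set 2, and Luc held 482.5, between SATS and scr of set 3. *Dhx37*, which releases the U3 snoRNA during small subunit assembly, held 1226 and 1230 in scr, 1092 and 1014 with 5p and 1103 and 1032 with SATS. *Dhx37* and *Ddx19b* were the 2 members with an unadjusted p under 0.05 for 5p by group alone, where 3.63% of all genes had one. With the block, 9 members had one for 5p, where 15.7% of all genes did.

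With SATS and the block, 11 of 49 members had an unadjusted p under 0.05 and 9 of these were lower, where 18.8% of all genes passed it and 8.04% were lower. The other 2 members, with positive differences, were *Ddx52* and *Ddx50*, both of ribosome biogenesis. *Ddx52* held 973 and 1127 in scr and 1133 and 1479 in SATS of sets 2 and 3, a log2 difference of 0.31 with a block adjusted p of 0.0685 (limma). *Ddx50*, a paralog of *Ddx21*, held 693 and 654 in scr and 747 and 911 in SATS, a log2 difference of 0.29 with a block adjusted p of 0.0990. SATS of set 3 was the highest of all 12 libraries for both genes, and the set 2 library was closer to the rest. Without SATS of set 2, both were called with the block (adjusted p = 0.0301 for *Ddx50* and 0.0486 for *Ddx52*). Neither gene was called in another KD.

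The lowest log2 differences with SATS were those of *Dhx34*, which takes part in nonsense-mediated decay, and *Dhx35*, a spliceosome component. *Dhx34* held 274 and 321 in scr and 217 and 260 in SATS, a log2 difference of −0.32 (block adjusted p = 0.0969, limma). *Dhx35* held 597 and 644 in scr and 469.5 and 539.5 in SATS, a log2 difference of −0.30 (block adjusted p = 0.0653). Both SATS libraries of *Dhx35* were below every other library of their set. *Ddx11*, the cohesion helicase, held 697 and 781 in scr and 611 and 670 in SATS, a log2 difference of −0.21, and 683 to 797 in the other KDs of sets 2 and 3. None of these was called.

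The splicing genes were close to scr in the other KDs. Their median log2 difference was −0.001 for SP in sets 2 and 3, −0.03 for 3p and −0.04 for 5p, and −0.08 for SATS with 9 of 11 below 0. *Dhx15* held 4842 and 5620 in scr and stayed between 4755 and 4860 in SP, 3p and 5p of set 2. In set 3 it was between 5458 and 5716 in those KDs. The 5 genes of transcription, microRNA processing and RNP assembly had a median log2 difference between −0.03 and 0.02 in each KD against scr. *Ddx5* held 9591 and 10984 in scr and 9177 and 9038 in 5p, with a log2 difference that was not called. In the antiviral group, *Dhx58* rested on 25 to 51 reads a library in sets 2 and 3 and *Ddx60* on 9 to 48, which is too few to show a change of the size seen elsewhere.

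Among the larger positive differences was that of *Ddx25*, which held 113 and 112 in scr, 131 and 149 with 3p, and 120 and 157 with 5p. Its log2 difference was 0.31 for 3p and 0.29 for 5p, with block adjusted p of 0.478 and 0.354 (limma). It rested on 252 to 369 reads a library. It also held 123 in untreated cells and 137 with Luc, both above scr of the same set. *Dhx32* held 777 and 789 in scr and 859 and 972 in 5p, a log2 difference of 0.22. *Dhx36* held 1813 and 2349 in scr and 2054 and 2672 in 5p, higher by 0.18 and 0.19 on the log2 scale in sets 2 and 3. Neither was called, with or without the block, and the sign for *Dhx36* turned when 1 library was left out of the fit by group alone.

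The direction of the differences was compared between sets 2 and 3. Set against their own scr library, 23 of 49 members moved the same way in both sets with SP, 24 with 3p, 34 with 5p and 34 with SATS, beside 57.5%, 55.7%, 62.7% and 66.2% of all genes. Where the direction was shared it was mostly downward, in 18, 19, 27 and 23 of 49 members, or 36.7%, 38.8%, 55.1% and 46.9%, where 29.0%, 29.7%, 30.1% and 33.8% of all genes were lower in both sets. The 2 sets share no library, but the siRNAs of 1 set share their scr library.

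**Figure D3:**
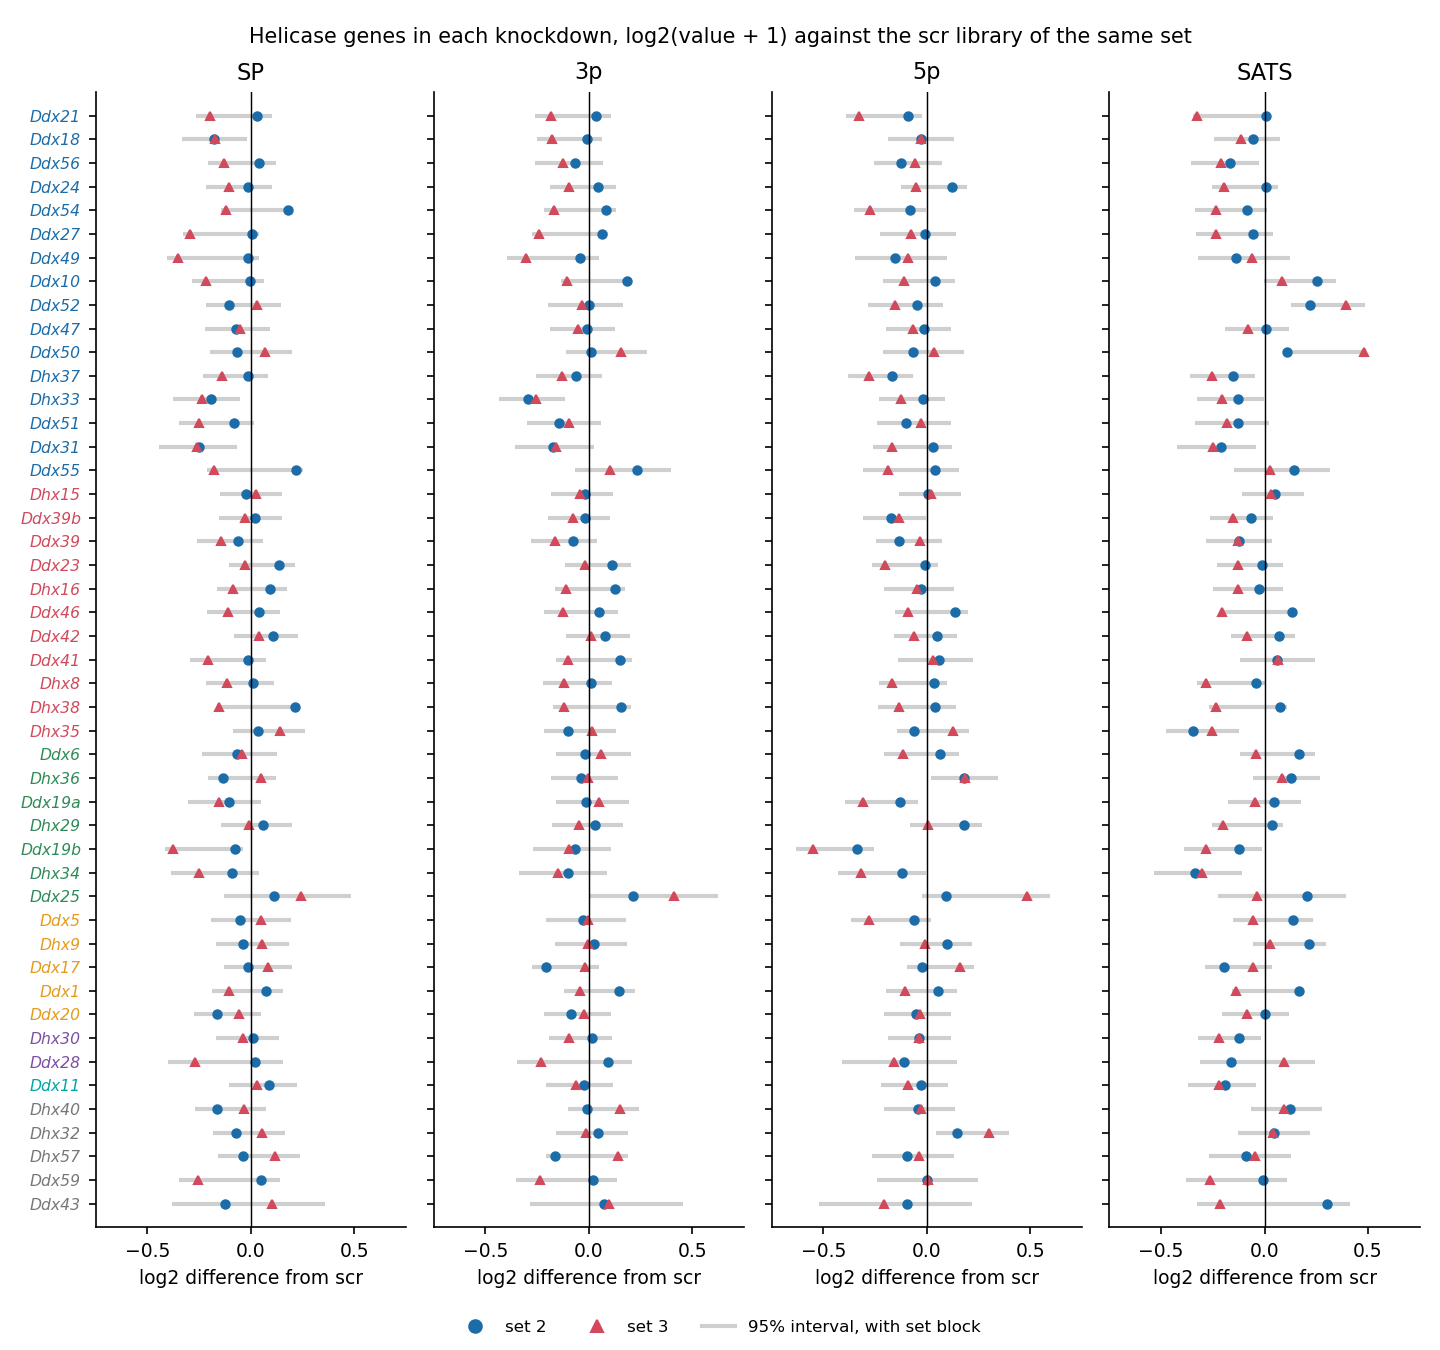
Log2 difference of log2(value + 1) from the scr library of the same set for the 47 members with a mean value of at least 50, in each KD, with circles for set 2, triangles for set 3 and the grey bar the 95% interval of the fit with the set as a block (names coloured by role in the order ribosome biogenesis, splicing, mRNA fate, transcription and RNP, mitochondrial, DNA and no role assigned). *Ddx19b* in 5p lies farthest to the left, with an interval from −0.63 to −0.26.

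The other RNA helicases and the cofactors of the family were read from the same fits. Of the 19 RNA helicase genes under other names, none was called by group alone in any KD comparison. With the block, *Dicer1*, which cuts microRNA precursors, was lower with SP in sets 2 and 3 (log2 difference −0.43, limma adjusted p = 0.0344), at 2578 and 2582 against 3402 and 3532 in scr. In set 1 the order of *Dicer1* was the reverse, with 3154 in scr and 3356, 3612 and 4003 in the 3 SP libraries. SP over 3 sets gave it a log2 difference of −0.21, not called (limma adjusted p = 0.759 with the block), in a fit that did not call *Stag1* either. Of 29 cofactor genes with a G-patch or MIF4G domain or another activating role, none was called by group alone. *Gle1*, the activator of *Ddx19b*, was lower with the block in 5p against scr (−0.36, adjusted p = 0.0253) and in all KDs against all controls (−0.26, adjusted p = 0.00467).

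*Gle1* held 1148 and 1283 in scr of sets 2 and 3, 1169 untreated and 1174 with Luc. It held 937 and 951 with 5p, 964 and 946 with SP, 1070 and 1068 with 3p, and 1001 and 1064 with SATS. The 8 KD libraries (937 to 1070) lay below the 4 controls (1148 to 1283). In set 1, scr held 1071 and the 3 SP libraries 879, 974 and 757, also lower. By group alone the adjusted p was 0.916 for 5p and 0.706 for all KDs. *Gpatch1* (SATS) and *Sugp2* (all KDs) were the other cofactor genes called with the block, both lower.

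The untreated and luciferase libraries were compared with scr of their own set, without replicates. These differences hold both the spread of the measurement and the treatment, since untreated cells had no siRNA and Luc had another one. Among the 47 members with a mean value of at least 50, none differed by more than 1.5-fold from its scr library in either, where 0.417% and 0.19% of all genes at that level did. *Ddx55* was the only such member over 25% higher or over 20% lower, with 305 in untreated cells against 237 in scr of set 2, where 4.86% of all genes at that level were. No such member passed these bounds with Luc, where 2.76% of genes did. Over all 49 members, *Ddx60* alone was past 1.5-fold in untreated cells (7.42% of all genes), on 9 reads against 17, and none was with Luc (8.04%). At the bounds of 25% and 20%, taken like the folds on the log2(value + 1) scale, *Ddx55* and *Ddx60* were outside in untreated cells (18.7% of all genes) and *Ddx60* with Luc (18.3%). *Dhx58* with Luc was at 79.2% of scr by value, and inside the bounds on that scale.

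More members were called between the replicate sets than in any KD comparison. Set 3 was compared with set 2 over the 5 siRNAs that both held, with the siRNA as a term in the fit. This put 5 libraries on each side, where most KD comparisons had 2, so the counts of calls were not made at equal power. Of the 49 members 18 passed an adjusted p of 0.05 (limma), or 36.7%, where 51.6% of all genes did. They were 14 genes higher in set 3 (24.2% of all genes were) and 4 lower (27.4%). edgeR called 20 members and 51.5% of all genes. The members' median log2 difference was 0.07 and that of all genes −0.01.

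*Ddx20*, the Gemin3 subunit of the SMN complex that assembles snRNPs, showed the clearest separation. It held 1101 to 1236 (median 1189) in set 2 (5 libraries) and 1536 to 1631 (median 1596) in set 3, a log2 difference of 0.42 ± 0.048 (SE, n = 5 and 5, limma adjusted p = 5.86e-06). *Dhx36* held 1652 to 2054 in set 2 and 2345 to 2672 in set 3, a log2 difference of 0.41 (adjusted p = 8.42e-06). *Ddx31* was at 341 to 415 and 435 to 520 (0.31, adjusted p = 0.000382). For each of these 3 genes every library of set 3 was above every library of set 2.

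*Dhx40*, *Ddx17*, *Ddx51*, *Dhx15* and *Ddx60* were separated in the same way. The log2 difference was 0.27 for *Dhx40* and for *Ddx17*, 0.26 for *Ddx51* and 0.22 for *Dhx15*. It was 0.95 for *Ddx60*, which held 4.77 to 9.17 in set 2 and 9.52 to 22.2 in set 3 on 10 to 48 reads. In all, 8 of 49 members had all 5 libraries of set 3 above set 2, where 12.1% of all genes did, and 2 had them all below, where 16.3% did. Those 2 were *Dhx38*, the helicase of the second step of splicing, at 1737 to 2010 in set 2 and 1412 to 1662 in set 3 (−0.29, adjusted p = 0.000646), and the nucleolar *Ddx27*, at 2035 to 2209 and 1600 to 1963 (−0.28, adjusted p = 0.000721).

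The other genes called were *Ddx52*, *Dhx35*, *Dhx33*, *Ddx56*, *Ddx11* and *Ddx39*, higher in set 3 by 0.12 to 0.25 on the log2 scale, and *Ddx54* (−0.22) and *Ddx19a* (−0.14), lower. The libraries of these genes overlapped between the sets. Ribosome biogenesis had 5 genes higher and 2 lower of 16, splicing 3 higher and 1 lower of 11, mRNA fate 1 higher and 1 lower of 7, transcription and RNP 2 higher of 5, the genes with no role assigned 1 higher of 5, and the DNA helicase and 1 of the 2 antiviral genes were higher. Neither mitochondrial gene was called. The exons of *Ddx39* and *Ddx54* overlap a coding gene on the other strand, over 18.5% and 1.80% of their length, and those of *Ddx49* over 40.9%, which matters where the counting did not use strand. Strand was set for paired-end libraries, and which of these libraries were paired-end is not given in the sources used here.

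The untreated library of set 2 and the luciferase library of set 3 were not in that fit. Between them, 13 of the 14 genes called higher in set 3 were higher in the luciferase library, with *Ddx11* the exception, and all 4 genes called lower were lower. These 2 libraries also differ in treatment. Markers of fibroblasts moved with the set as well. The sum of 8 of them was 2639 to 5772 in set 2 (6 libraries) and 403 to 594 in set 3 (6 libraries), with 4 of the 8 separated between the sets. *Col1a1* held 1849 to 4627 in set 2 and 155 to 367 in set 3, while *Dcn* held at most 6 and *Lum* at most 1 in either. The sum of 8 endoderm markers was 281 to 357 in set 2 and 196 to 266 in set 3, with 2 genes wholly higher in set 2 and 1 wholly lower. The sums of 10 ESC markers overlapped, at 37240 to 42398 and 31168 to 41674, but single genes did not. *Nanog*, *Esrrb*, *Zfp42* and *Klf4* were higher in every library of set 2 than in any of set 3, and *Tdgf1* was lower. *Klf4* held 1124 to 1630 in set 2 and 379 to 614 in set 3. The part of these marker differences in the helicase values was not tested. What else differed between the sets cannot be told apart from the set itself.

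**Figure D4:**
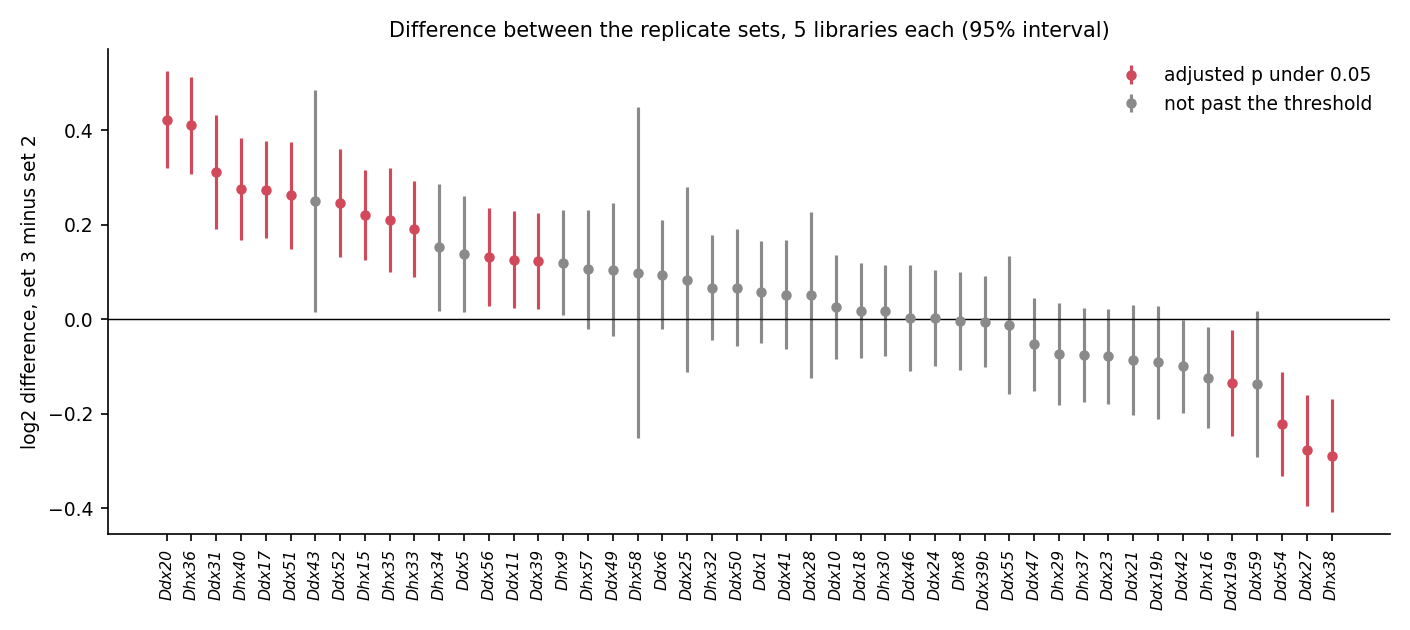
Log2 difference (set 3 minus set 2) of 48 members, all but *Ddx60*, ordered by size, with 95% intervals from a fit over 5 libraries per set with the siRNA as a term, and red for an adjusted p under 0.05. *Ddx20* and *Dhx36* are at the upper end at 0.42 and 0.41 and *Dhx38* at the lower end at −0.29.

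For some members, as for some of all genes, every library of set 1 lay outside the range of sets 2 and 3. Set 2 and set 3 were not counted in the same way against the rest. All 4 libraries of set 1 were above all 12 of sets 2 and 3 for 7 of the 47 members with a mean value of at least 50. That is 14.9%, where 8.7% of genes at that level were above. They were below for 2 members, or 4.26%, where 11.7% of genes were. The 7 were *Ddx5*, *Dhx9*, *Ddx11*, *Ddx43*, *Ddx46*, *Dhx29* and *Dhx57*, and the 2 were *Ddx24* and *Ddx49*. *Ddx43* differed most, at 169 to 258 in set 1 and 56.0 to 82.7 elsewhere, on 21 to 76 reads a library in set 1. The 4 values of *Ddx5* in set 1 were 11948 to 13192, against 8729 to 11375 over the 12 libraries of sets 2 and 3. Set 1 also had the lowest depth and the most *Rn45s* (69.2% to 79.1% of its reads, beside 14.7% to 23.9% elsewhere), and the part of these in the values was not tested.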

How the data were processed

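The members and all gene lists were chosen with earlier results of these data known. The deposited values are a normalized signal: the authors mapped to mm10 with hisat2, took gene counts from featureCounts and scaled them by size factors of DESeq2 (1.14.1 in the submitters' notes). Whole reads were recovered for all values (tolerance 0.01). A second deposited table, CPM values of set 1 by the authors (edgeR 3.16.5), was not used, and libraries of cells in 2i were not analysed here.

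The main fits used limma 3.58.1 (lmFit, then eBayes with trend; R 4.3.3) on log2(value + 1). Genes whose values summed to 10 or more over the fitted libraries were kept, p-values were adjusted by Benjamini-Hochberg over all of them, and the threshold was 0.05. All 49 members passed the filter in every fit. The 3 SP libraries of set 1 were averaged to 1 sample, and they differed by more than sampling noise. SP, 3p, 5p, SATS and scr of sets 2 and 3 (10 libraries) were fitted together. Fold changes on this scale understate those of low genes.

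Set numbers come from the labels. After group means were removed, libraries of the same set correlated across genes at a mean of 0.80 (0.77 to 0.82, 3 pairs) for SP and scr, and 0.86 (0.81 to 0.93, 20 pairs) in sets 2 and 3. With 2 libraries a group, the deviations of sets 2 and 3 mirror each other, so each correlation among the 20 is counted once per set. Because of these correlations the set was also fitted as a block. Other alternatives were edgeR 4.0.16 (quasi-likelihood test) on the recovered reads (SP of set 1 summed), pseudocounts of 0.1 and 10, filters on low values, TMM scaling, pooled controls and leaving out each library. The fits were tested on simulated data.

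Gene models came from GENCODE M21 (GRCm38) and all 49 members matched. Exon length is the merged length of protein-coding transcripts. Genes named with values are those called in any comparison, with or without the block, the 3 with the largest rise and fall per comparison among members with a mean value of at least 50, the highest of each role, the 4 close pairs and *Stag1*. Others were chosen after their values were seen. The study's methods give reverse-stranded processing for paired-end libraries only, and its libraries were paired-end or single-end. Since PCR copies inflate reads, depth limits counting error alone. A result of 1 gene outside the family is not reported here.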

Additional observations from a re-analysis of the deposited data

Results flagged for a closer look

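Among the 5 SP libraries, 50 values (the 49 members and *Stag1*) were checked for a library far from the rest by Dixon's gap ratio at the 95% level, and chance flags about 1 group in 20. SP of set 2 was far below the others for 2 genes. *Dhx15* held 4755 there, against 5509 to 5716 in the other SP libraries, and *Dhx40* held 739, against 929 to 958. In both cases scr of set 2 was also low, at 4842 and 829, and both genes were called between sets 2 and 3.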

How the results depend on the processing

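The alternatives changed few calls. Of 1013 values of named genes under an alternative, 959 kept their direction and their side of the threshold, 17 passed it, 24 no longer passed it and 13 turned sign. With the replicate block, limma and edgeR each called 1 member (*Ddx19b*) for 5p against scr, for 5p against 3p and for all KDs against all controls, where the fits by group alone called 0, and the block changed no other call. Leaving out 1 library at a time with the block gave 0 to 1 members for 5p against scr, 0 to 1 for all KDs, 0 to 2 for SATS (*Ddx50* and *Ddx52*) and 0 for 5p against 3p, SP and 3p. Without the block it gave 0 in every KD comparison. Leaving out 1 siRNA gave 15 to 17 members between the sets against 18, and edgeR gave 20. *Ddx19a*, *Ddx11*, *Ddx39*, *Ddx56* and *Dhx35* lost that call without a siRNA term (adjusted p 0.0722 to 0.159), and *Ddx19a* also with TMM scaling and in edgeR. At bounds of 25% above and 20% below in place of 1.5-fold, on the log2(value + 1) scale, 2 members were outside in untreated cells and 1 with Luc.

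None of the log2 differences that turned sign was called. Over the fits without 1 library each, 3p against scr ran from −0.35 to 0.0216 for *Ddx31* (above 0 without 3p of set 2 or scr of set 3) and from −0.0906 to 0.26 for *Ddx43* (below 0 without 3p of set 3 or scr of set 2). For *Dhx36* the range was −0.00699 to 0.37 in 5p against scr (below 0 without 5p of set 3 or scr of set 2), −0.00139 to 0.41 in 5p against 3p (below 0 without 3p of set 2) and −0.00490 to 0.19 for all KDs (below 0 without untreated cells). For *Dhx35* with SP in sets 2 and 3 it was −0.0183 to 0.20 (below 0 without SP of set 3). For *Ddx28* with SP over 3 sets it was −0.0104 in edgeR with the block, −0.0179 with SP 1c alone for set 1 and −0.124 to 0.31 without 1 set each (below 0 without set 1). The fits with the block and without a set were added after seeing the data. The cause was not tested. With 2 libraries a group, 1 library carries much of each value, and in set 1 the low depth limits *Ddx25*, *Ddx28*, *Ddx43*, *Ddx60* and *Dhx58*.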
